A study of Homo sapiens with 12 samples.

Results

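A set of 8 genes of copper and platinum drug transport, including chaperones that hand copper on inside the cell, was followed on 12 expression arrays of human lung adenocarcinoma cells. It held SLC31A1, SLC31A2, ATP7A, ATP7B, ATOX1, CCS, LRRC8A and LRRC8D, and it was formed by taking each probe whose gene name in the scanner output was 1 of these symbols. This gave 8 genes, with 13 of the 50493 probes used, among the 24858 genes that could be tested. The cells were A549, PC14 and PC14CDDP, where CDDP stands for cisplatin. The authors describe PC14CDDP as a drug-resistant line and PC14 as the parental line that it comes from. Each line was transfected at 25 nM with pre-miR-197 (a synthetic precursor that supplies miR-197), with its control NC, with LNA-miR-197 (a locked nucleic acid oligonucleotide that blocks miR-197), or with its control LNA-NC, and 1 array was run per line and transfection. The 4 arrays of a line are cultures of that 1 line and the labels name no repeats, so every p-value below measures the spread between these arrays, part of which may be technical. In the comparisons of transfections the 3 lines served as the replicates, and PC14 and PC14CDDP are related lines. The spread also holds any difference of a transfection effect between lines, which cannot be told apart from the spread of repeats. All A549 arrays lay on slide 1, PC14 lay in row 1 and PC14CDDP in row 2 of slide 2, and each transfection kept the same slide column. The line and the slide or row, and likewise the transfection and the column, therefore cannot be told apart.

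Copper enters cells through the high-affinity transporter SLC31A1 (CTR1), is handed on by chaperones such as ATOX1 and CCS, and leaves or is stored in vesicles through the ATP-driven pumps ATP7A and ATP7B. Cisplatin can bind to several of these proteins, and the set has been studied for platinum uptake and efflux in tumor cells. LRRC8 proteins form the volume-regulated anion channel, of which LRRC8A is the indispensable subunit, and LRRC8D-containing channels let cisplatin pass.

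A 60-base probe reports each gene, and its value is the log2 of the processed signal minus the 75th percentile of the array, so that 0 stands for a signal at that percentile and a step of 1 for a 2-fold change. Levels of different probes cannot be set against each other on this scale. Of the 8 genes, SLC31A1 had 2 probes, ATP7A had 5 and each other gene had 1, and each of the 13 probes passed as well above background on every array. The probe with the highest mean stood for a gene. The sequences of 4 probes are shown, because a probe sets which stretch of a transcript is measured, with hg19 positions from the files and in lower case throughout. They were picked by hand as probes taken to lie in coding sequence, which was not tested against an annotation. Those of ATP7A, CCS and LRRC8D stand for their genes, and that of SLC31A1 is its dimmer, second probe.
ATP7A, A_33_P3210885, chrX:77227198-77227257: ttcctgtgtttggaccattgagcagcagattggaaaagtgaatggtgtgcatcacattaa
SLC31A1, A_24_P321068, chr9:116020983-116021042: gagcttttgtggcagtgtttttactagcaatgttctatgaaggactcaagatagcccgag
CCS, A_23_P127475, chr11:66373026-66373194: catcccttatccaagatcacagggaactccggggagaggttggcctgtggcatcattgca
LRRC8D, A_23_P97365, chr1:90401097-90401156: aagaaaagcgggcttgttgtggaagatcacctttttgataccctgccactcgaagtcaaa
All 4 lie on the plus strand, and the CCS probe spans more than 1 exon, since its 60 bases cover a longer stretch of the chromosome. The miRNA that was supplied or blocked is printed from RefSeq with its seed, bases 2 to 8, in capitals, because those bases pair with target transcripts.
hsa-miR-197-3p, chr1:109598940-109598961 (GRCh38.p14, plus strand): uUCACCACcuucuccacccagc

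PC14CDDP differed from PC14 in most of these genes. ATP7B, a copper-exporting pump, was 3.06-fold lower in PC14CDDP, LRRC8D was 1.95-fold lower and the second pump ATP7A was 1.68-fold lower. SLC31A2, a copper transporter found mainly on internal vesicles, was 1.81-fold higher, and LRRC8A was 1.31-fold higher. SLC31A1 and ATOX1 did not pass the test. In all, 6 of 8 genes were called at an adjusted p under 0.05 by limma, 2 higher and 4 lower. Among all 24858 genes tested, 48.3% were called in this comparison, 24.7% higher and 23.5% lower, so that calls were common between these lines. The median absolute log2 difference was 0.57 over the 8 genes and 0.40 over all genes. Without the NC arrays 3 of the 8 genes were called, and the share of all genes called in that setting was not counted.

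**Figure D1:**
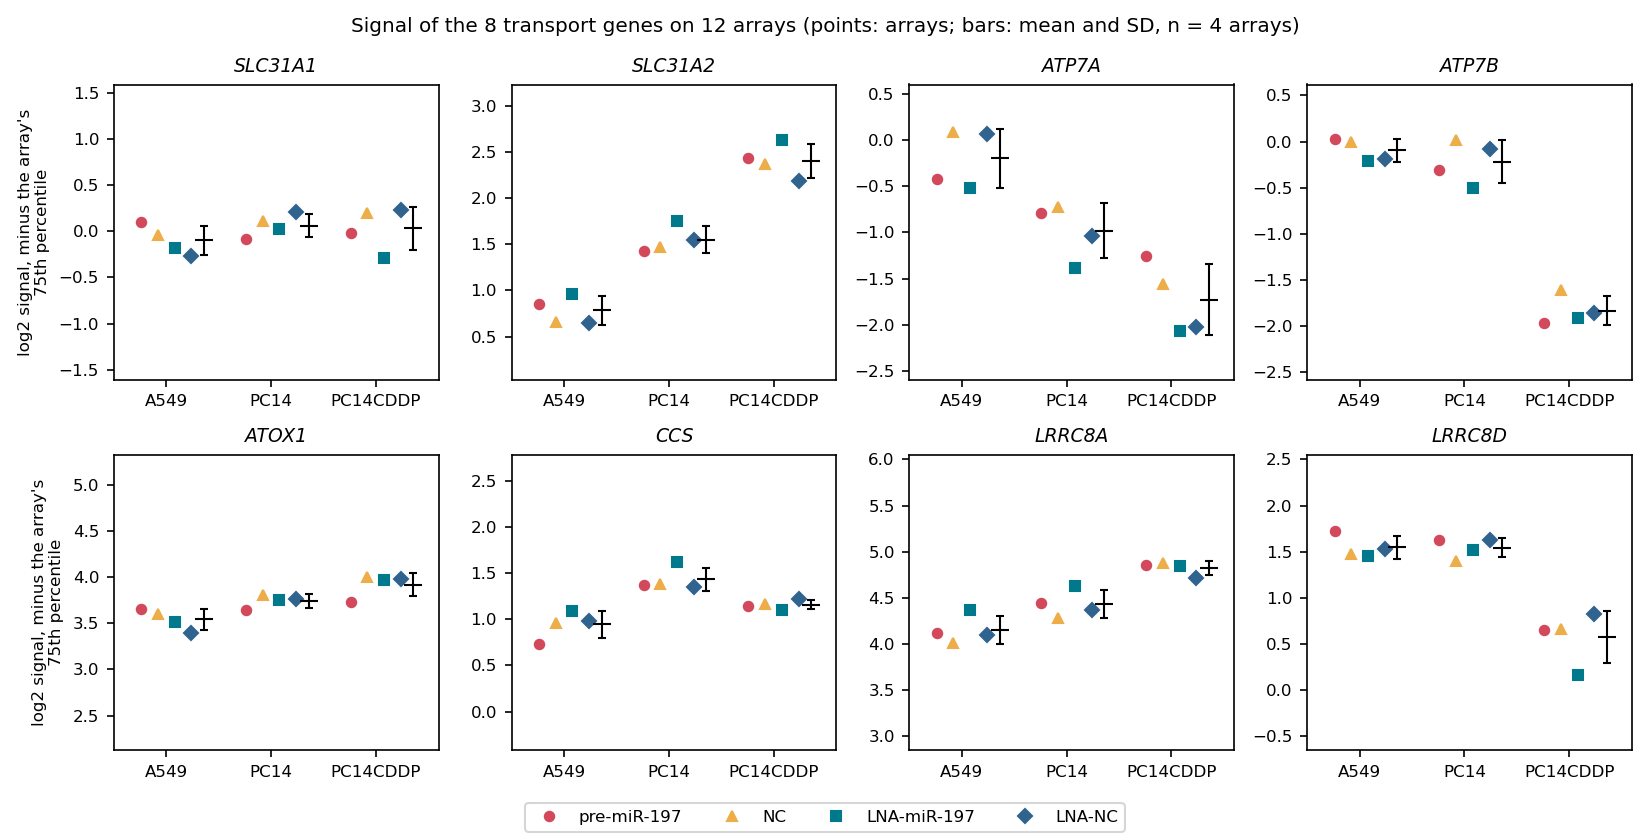
Log2 signal of the 8 genes (vertical axes, minus the 75th percentile of each array, all panels of the same height) in A549, PC14 and PC14CDDP, where each point is 1 array, its shape and colour give the transfection, and the bar gives the mean and SD of the 4 arrays of a line. ATP7B and LRRC8D stand apart in PC14CDDP, SLC31A2 climbs and ATP7A falls from A549 over PC14 to PC14CDDP, and SLC31A1 overlaps in all lines.

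The transporters SLC31A1 and SLC31A2 are given first. In the order pre-miR-197, NC, LNA-miR-197 and LNA-NC, which is kept for all values by array, SLC31A1 (A_24_P928901) gave 0.10, -0.04, -0.18 and -0.27 in A549. It gave -0.09, 0.11, 0.02 and 0.20 in PC14, and -0.01, 0.20, -0.29 and 0.23 in PC14CDDP. The arrays of the lines overlapped throughout. PC14CDDP differed from PC14 by a log2 difference of -0.03 (SE 0.13, 95% limits -0.32 to 0.26, adjusted p = 0.861). The second probe of SLC31A1, shown above, differed by -0.01 (SE 0.13, adjusted p = 0.962 with each probe fitted on its own).

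SLC31A2 (A_23_P217109, chr9:115926240-115926299) rose from line to line. It gave 0.86, 0.66, 0.96 and 0.65 in A549, 1.42, 1.47, 1.76 and 1.54 in PC14, and 2.44, 2.37, 2.63 and 2.18 in PC14CDDP. No array of 1 line reached those of another, and LNA-miR-197 gave the highest value in each line. PC14CDDP exceeded PC14 by a log2 difference of 0.86 (SE 0.08, adjusted p = 8.94e-05), between 0.64 and 1.02 within the 4 transfections, and A549 lay below PC14 by a log2 difference of -0.77 (SE 0.08, adjusted p = 7.21e-05). SLC31A1 and SLC31A2 lie close together on chromosome 9, and the second alone passed the test in these comparisons.

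The export pumps were lower in PC14CDDP. ATP7B (A_23_P205228, chr13:52507035-52507094, minus strand) gave 0.03, -0.01, -0.21 and -0.19 in A549 and -0.30, 0.02, -0.50 and -0.07 in PC14. In PC14CDDP it gave -1.96, -1.61, -1.91 and -1.85, so that every PC14CDDP array lay more than 1.10 log2 units below every PC14 array. The log2 difference between PC14CDDP and PC14 was -1.62 (SE 0.10, adjusted p = 9.01e-06), the largest of the 8 genes, and it lay between -1.78 and -1.41 within the transfections. A549 and PC14 overlapped, with a log2 difference of 0.12 (95% limits -0.11 to 0.36, adjusted p = 0.32).

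ATP7A fell in steps from A549 to PC14CDDP. Its brightest probe, shown above, gave -0.42, 0.08, -0.52 and 0.07 in A549, -0.79, -0.72, -1.38 and -1.04 in PC14, and -1.26, -1.56, -2.06 and -2.03 in PC14CDDP. LNA-miR-197 gave the lowest value in each line. The ranges of PC14 and PC14CDDP overlapped, but PC14CDDP was lower in 4 of 4 transfections. The log2 difference was -0.75 (SE 0.17, adjusted p = 0.00755) against PC14 and -1.53 (SE 0.17, adjusted p = 7.23e-05) against A549. Without the NC arrays the first of these was -0.71 with an adjusted p of 0.0512.

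All 5 ATP7A probes pointed the same way in that comparison, and each passed the test when probes were fitted singly, where 23.5% of the 33715 probes were called lower. The log2 differences of the 4 dimmer probes were -1.11 for A_33_P3210875 (chrX:77302314-77302373), -1.06 for A_23_P217737 (chrX:77305601-77305657), -0.46 for A_33_P3327772 (chrX:77302448-77302507) and -0.67 for A_33_P3210880 (chrX:77267846-77267905). Their adjusted p-values lay between 0.000736 and 0.0209. The last of these is listed under an Ensembl transcript, ENST00000355691, and the others under the RefSeq transcript NM_000052. The probes are not independent measurements, since they read transcripts of 1 gene from the same RNA.

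**Figure D2:**
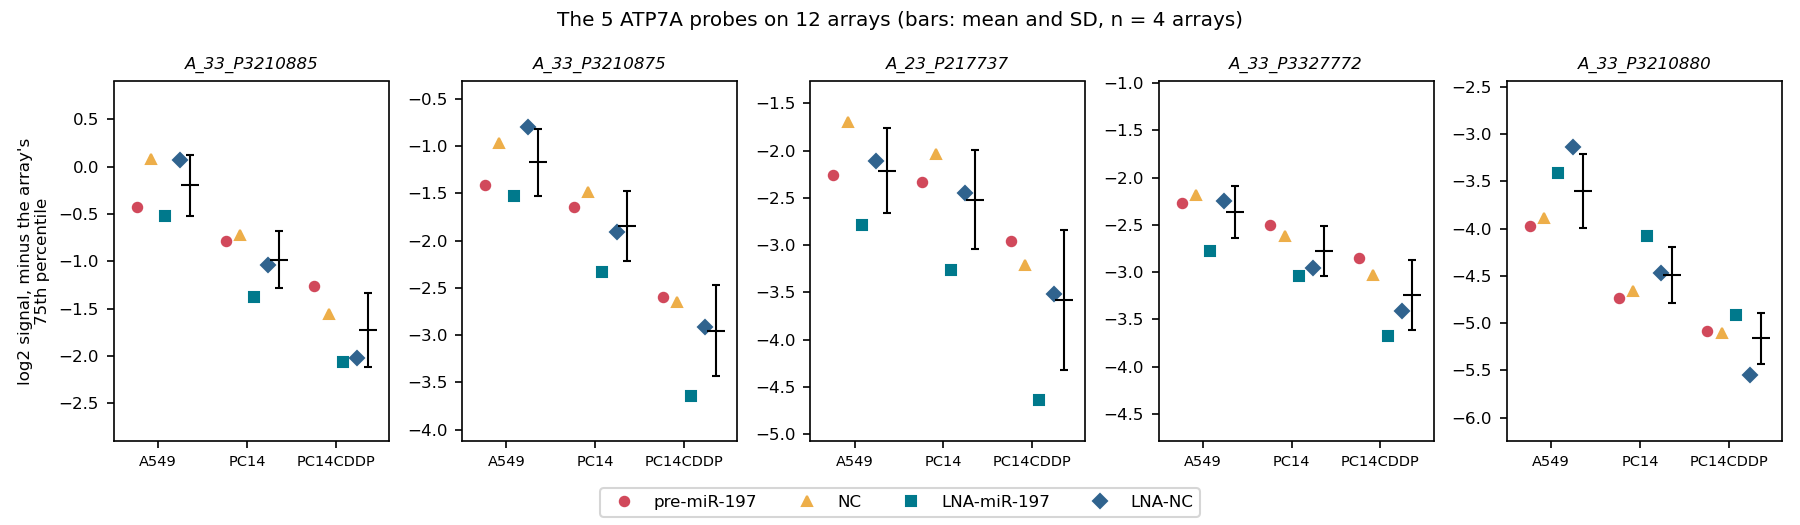
Log2 signal of the 5 ATP7A probes (vertical axes, minus the 75th percentile of each array, all panels of the same height) by cell line, with 1 point per array and the mean and SD of 4 arrays as bars. In each panel PC14CDDP lies lowest, and in all but A_33_P3210880 the LNA-miR-197 array is the lowest or next to lowest of its line.

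The chaperones moved little. ATOX1 (A_23_P144877, chr5:151125870-151125929, minus strand), which delivers copper to the pumps, gave 3.66, 3.60, 3.51 and 3.40 in A549, 3.64, 3.81, 3.75 and 3.77 in PC14, and 3.73, 4.0, 3.97 and 3.98 in PC14CDDP. PC14CDDP lay above PC14 in 4 of 4 transfections by a log2 difference of 0.18 (SE 0.09, 95% limits -0.04 to 0.39, adjusted p = 0.156), which did not pass. Against A549 the difference of 0.38 (SE 0.09, adjusted p = 0.00649) passed.

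CCS, which loads copper into superoxide dismutase, was highest in PC14. It gave 0.74, 0.96, 1.09 and 0.99 in A549, 1.37, 1.39, 1.62 and 1.35 in PC14, and 1.14, 1.17, 1.10 and 1.22 in PC14CDDP. The arrays of PC14 lay above those of each other line. PC14CDDP was lower than PC14 by a log2 difference of -0.27 (SE 0.09, adjusted p = 0.0373) and A549 by -0.49 (SE 0.09, adjusted p = 0.00161). The first call was lost whichever transfection was left out, with adjusted p-values of 0.0794 without pre-miR-197, 0.118 without NC, 0.133 without LNA-miR-197 and 0.0687 without LNA-NC.

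The channel subunits went opposite ways. LRRC8A (A_23_P250274, chr9:131680227-131680286), the subunit that every channel of this kind needs, gave 4.12, 4.01, 4.37 and 4.10 in A549, 4.45, 4.28, 4.63 and 4.36 in PC14, and 4.86, 4.88, 4.85 and 4.71 in PC14CDDP. Every PC14CDDP array lay above every PC14 array, with a log2 difference of 0.39 (SE 0.09, adjusted p = 0.00559). Without the NC arrays it was 0.32 with an adjusted p of 0.0512.

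LRRC8D, the subunit tied to cisplatin passage, gave 1.73, 1.48, 1.45 and 1.53 in A549, 1.63, 1.40, 1.52 and 1.63 in PC14, and 0.66, 0.67, 0.17 and 0.82 in PC14CDDP. A549 and PC14 overlapped, and every PC14CDDP array lay below both lines. The log2 difference from PC14 was -0.97 (SE 0.12, adjusted p = 0.00025) and that from A549 was -0.97 (SE 0.12, adjusted p = 0.000106). Between A549 and PC14 it was 0.002 (95% limits -0.27 to 0.27, adjusted p = 0.988). The groups did not overlap between PC14CDDP and PC14 for 5 of the 8 genes (SLC31A2, ATP7B, CCS, LRRC8A and LRRC8D), and for 36.0% of all genes tested.

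**Figure D3:**
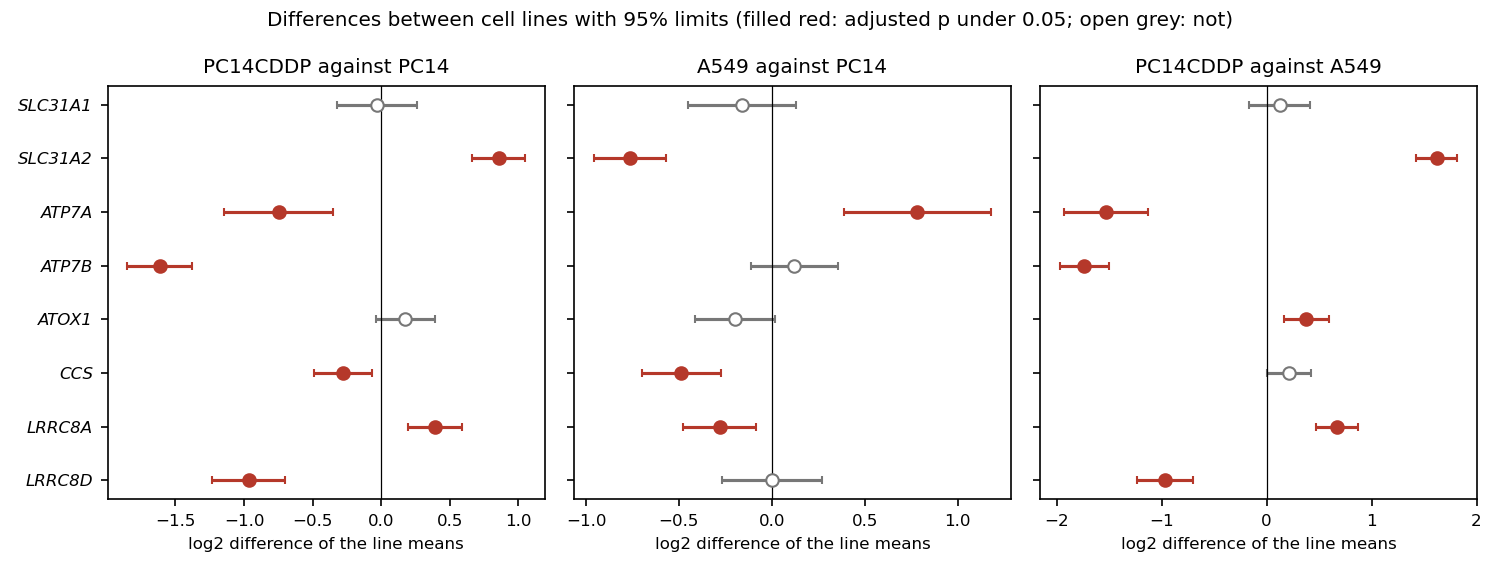
Log2 differences between line means (horizontal axes) for the 8 genes in 3 comparisons, with 95% limits from limma, where filled red points passed an adjusted p of 0.05 and open grey points did not. ATP7B and LRRC8D lie far below 0 in the comparisons of PC14CDDP with PC14 and with A549 and near 0 between A549 and PC14, while SLC31A2 differs in all 3.

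A549 set against PC14 gave 4 called genes, 1 higher (ATP7A, log2 difference 0.78, SE 0.17, adjusted p = 0.00377) and 3 lower (SLC31A2, CCS and LRRC8A). Of all genes tested, 68.2% were called here, 35.9% higher and 32.3% lower, so that the share of the 8 genes lay below that of all genes. LRRC8A differed by a log2 difference of -0.28 (SE 0.09, adjusted p = 0.0183), a call that was lost without pre-miR-197 (adjusted p = 0.083), without NC (0.0528) or without LNA-NC (0.0675). PC14CDDP set against A549 gave 6 called genes, 3 higher (SLC31A2, ATOX1 and LRRC8A) and 3 lower (ATP7A, ATP7B and LRRC8D), beside 70.5% of all genes, 33.7% higher and 36.8% lower. SLC31A2 was 3.08-fold higher and ATP7B 3.33-fold lower in PC14CDDP than in A549. The comparisons share the arrays of the lines and are given side by side.

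ATP7B and LRRC8D had like profiles over the 12 arrays (Pearson r = 0.931), as had SLC31A2 and LRRC8A (0.96), while SLC31A2 and ATP7A ran opposite (-0.933). These correlations describe 12 arrays that share 3 lines and 2 slides. Among the 18451 other genes well above background on all arrays, those most like ATP7B were DSTN (destrin, which severs actin filaments, r = 0.994) and TNFRSF1A (a receptor of tumor necrosis factor, r = 0.992). Those most like LRRC8D were RAB31 (r = 0.985) and PRKCQ (r = 0.982), and those most like LRRC8A were KLHL21 (r = 0.981) and GOLGA2 (r = 0.974). SLC31A2 was closest to ZNF330 (r = 0.995) and CPAP (r = 0.994), and ATP7A to DPRXP4 (r = 0.978) and the transcript XLOC_l2_015716 (r = 0.972). ATOX1 was closest to the unnamed probe A_33_P3280355 (r = 0.978) and RAB7A (r = 0.940), CCS to the unnamed probe A_33_P3376781 (r = 0.960) and TYW3 (r = 0.954), and SLC31A1, at lower values, to NDUFB3 (r = 0.882) and WASHC5 (r = 0.879).

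The promoters of ATP7B and LRRC8D are shown because both genes were lower on every PC14CDDP array than on any array of the other lines. Within PC14 they did not move together, since the NC array was highest for ATP7B and lowest for LRRC8D. Shared regulation was not tested. The 250 bases before the most upstream start that RefSeq lists are given from GRCh38.p14, with GC boxes (GGGCGG on either strand, which the factor SP1 binds) in capitals.
ATP7B, chr13:52012133-52012382, minus strand: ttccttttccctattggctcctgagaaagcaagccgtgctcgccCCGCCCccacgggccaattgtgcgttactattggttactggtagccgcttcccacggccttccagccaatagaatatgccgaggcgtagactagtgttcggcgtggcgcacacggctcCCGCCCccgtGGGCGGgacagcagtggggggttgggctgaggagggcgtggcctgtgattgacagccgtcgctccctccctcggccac
LRRC8D, chr1:89820782-89821031, plus strand: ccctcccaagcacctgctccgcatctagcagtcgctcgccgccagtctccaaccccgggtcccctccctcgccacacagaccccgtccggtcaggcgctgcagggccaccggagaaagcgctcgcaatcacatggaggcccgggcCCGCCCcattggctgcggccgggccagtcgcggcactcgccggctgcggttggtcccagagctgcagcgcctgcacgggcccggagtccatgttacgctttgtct
The ATP7B stretch held 3 GC boxes and the LRRC8D stretch held 1. RefSeq entries were found for 7 of the 8 genes, with 11 starts, of which 7 had a GC box within 250 bases, beside 42.6% of 35116 promoters of that length. ATP7B, LRRC8A and LRRC8D have more than 1 start each. The ATP7B windows chr13:52012009-52012258 and chr13:52012133-52012382 overlap, so the starts are not separate stretches. The core of the metal response element (TGCACNC or TGCGCNC on either strand) was found at 4 of the 11 starts and in 24.8% of all promoters. The stretches printed here held none, but a further start of ATP7B (chr13:52012009-52012258) had 2 and a further start of LRRC8D (chr1:89821689-89821938) had 1, each beside 3 GC boxes. A match describes letters and not a bound factor.

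None of the 8 genes passed the test by its brightest probe after miR-197 was supplied or blocked. For pre-miR-197 against NC, 0 of 8 genes were called, beside 0.217% of all genes. At an unadjusted p under 0.05 by limma there were 0 of 8, beside 4095 of all 24858 genes. For LNA-miR-197 against LNA-NC, 0 of 8 were called, beside 7.66% of all genes. Here 1 gene, SLC31A2, had an unadjusted p under 0.05 by limma, beside 6762 of all genes. For LNA-NC against NC, which compares the controls, 0 of 8 were called, beside 0.652% of all genes. Unadjusted, 0 of 8 passed by limma, beside 3393 of all genes. The methods' t-test gave 0 of 8 at an unadjusted p under 0.05 in each comparison, beside 426, 758 and 758 of all genes. That t-test does not pair the arrays by line, so line differences enter its spread. After adjustment it called 0 of all genes in each comparison.

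SLC31A2 was higher on the LNA-miR-197 array than on the LNA-NC array in 3 of 3 lines. A549 gave a log2 ratio of 0.31, PC14 of 0.21 and PC14CDDP of 0.45, and their mean was 0.32 (SE 0.10, 95% limits 0.10 to 0.55, adjusted p = 0.0795). LRRC8A was likewise higher in 3 of 3 lines (mean 0.22, SE 0.10, adjusted p = 0.188), and LRRC8D was lower in 3 of 3 lines (mean -0.28, SE 0.13, adjusted p = 0.222), mostly through PC14CDDP with a log2 ratio of -0.65. None of these passed. SLC31A2 passed with normexp background correction (adjusted p = 0.0446), with a filter on all 12 arrays (0.0474) and with a trend and robust prior (0.043). With normexp more genes passed in general, 3162 of all genes beside 1903 in the main setting.

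ATP7A was lower after LNA-miR-197 in 3 of 3 lines by its brightest probe, by a log2 ratio of -0.59 for A549, of -0.35 for PC14 and of -0.04 for PC14CDDP (mean -0.32, SE 0.20, adjusted p = 0.34). The probe A_23_P217737, at the far end of the transcript, gave -0.68, -0.81 and -1.12 (mean -0.87, SE 0.19). With probes fitted singly it was the 1 probe of the 5 that was called (adjusted p = 0.0356), beside 4.02% of all probes called lower, and A_33_P3210875 (mean -0.63) had an adjusted p of 0.0781. The Ensembl probe A_33_P3210880 went the other way, with a mean of 0.26 (adjusted p = 0.509), so that the probes of ATP7A disagreed on this transfection while they shared a direction between the lines. This probe is dim, with a PC14CDDP mean of -5.16, where the lowest signals well above background lay between -6.46 and -5.75. After pre-miR-197, A_23_P217737 had a mean of -0.20 (adjusted p = 0.651).

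**Figure D4:**
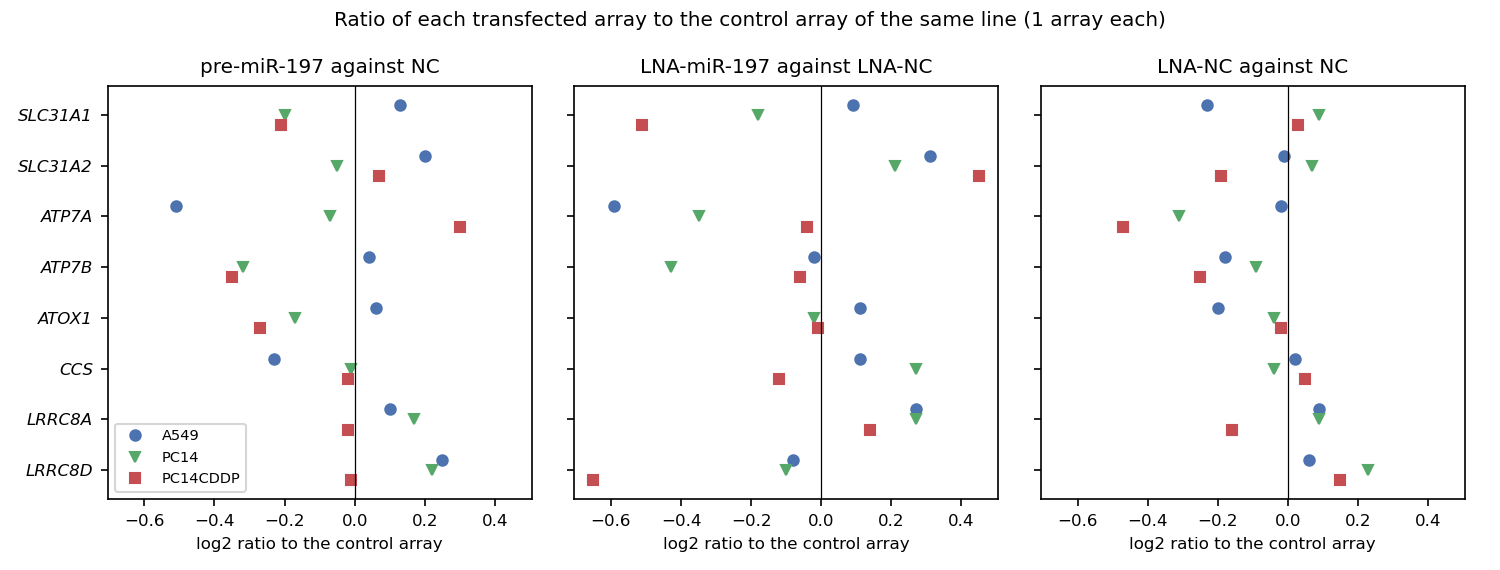
Log2 ratio of each transfected array to the control array of the same line (horizontal axes) for the 8 genes in 3 comparisons, with 1 point per line and no replicate within a line. For LNA-miR-197 against LNA-NC, SLC31A2 and LRRC8A lie above 0 and ATP7A and LRRC8D below 0 in all 3 lines, and ratios stay within 0.7 log2 units.

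Other genes of copper and platinum handling were counted in PC14CDDP against PC14, from lists that share no gene with the 8. Of 13 copper handling genes tested (14 listed), 3 were higher and 5 lower, and of 10 mitochondrial copper genes 5 were higher and 3 lower. Of 13 copper enzymes tested (17 listed) 4 were higher and 3 lower, of the 3 other LRRC8 genes 1 was higher (LRRC8C) and 2 lower (LRRC8B and LRRC8E), and of 8 lipoylation genes 5 were higher and 2 lower. Of 6 other platinum carriers tested (7 listed) 0 were higher and 1 lower. These counts stand beside 24.7% higher and 23.5% lower among all genes. The median log2 difference was -0.05 for copper handling, 0.36 for mitochondrial copper, -0.05 for copper enzymes and 0.62 for lipoylation, beside 0.03 for all genes. The mitochondrial copper count of 8 called genes fell to 5 without NC and to 5 without LNA-NC, and the 7 called copper enzymes fell to 4 without pre-miR-197.

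The widest difference was that of SLC47A1 (MATE1), a proton exchanger that expels organic cations and platinum drugs. Its main probe was well above background on 4 of 4 PC14 arrays and on 0 of 4 PC14CDDP arrays, which makes it at least 20.9-fold lower in PC14CDDP (measured means -1.57 and -7.75, adjusted p = 1.01e-07). Such a bound sets the brighter mean against, per array, the higher of the dim signal and the lowest signal well above background. The second SLC47A1 probe was lower too, by a log2 difference of -3.17 (adjusted p = 0.00192).

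Among the copper handling genes, 4 passed with a log2 difference of at least 1. VPS35L, a subunit of the retriever complex that recycles membrane proteins from endosomes, was 8.58-fold lower in PC14CDDP (log2 difference -3.10, SE 0.16, adjusted p = 3.02e-06). Of the STEAP metalloreductases, which reduce copper and iron before uptake, STEAP3 was 2.58-fold lower and STEAP2 2.91-fold higher (adjusted p = 0.000239 and 4.79e-05). A further probe of each went the same way but differed in size. With probes fitted singly, the log2 difference was -0.78 for STEAP3 (adjusted p = 0.00406). For STEAP2 it was 2.31 (adjusted p = 0.00366), from a probe well above background on 8 of 12 arrays. CUTC was 2.01-fold lower (adjusted p = 0.000929). Of the lipoylation genes, LIAS, the lipoic acid synthase, was 2.28-fold higher (log2 difference 1.19, SE 0.10, adjusted p = 4.69e-05).

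Among the copper enzymes, the widest differences lay at low signal. LOX, a lysyl oxidase that crosslinks collagen, was well above background on 4 of 4 PC14CDDP arrays and on 0 of 4 PC14 arrays, and was at least 4.88-fold higher in PC14CDDP (adjusted p = 9.51e-05). LOXL1, its relative, was called lower (measured log2 means -5.59 in PC14CDDP and -2.24 in PC14, adjusted p = 6.94e-06), and 1 of 4 PC14CDDP arrays measured it well above background. MOXD1, a copper monooxygenase-like protein, was called higher (measured means -3.74 and -5.86, adjusted p = 2.84e-05), and 2 of 4 PC14 arrays measured it so. CP (ceruloplasmin), the plasma copper oxidase, was called lower (measured means -6.50 and -5.27, adjusted p = 0.0104) with 1 of 4 PC14CDDP arrays well above background, and its second probe did not pass (log2 difference 0.43, adjusted p = 0.422). No fold is given for these 3 genes, because part of the arrays of 1 line lay at background.

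**Figure D5:**
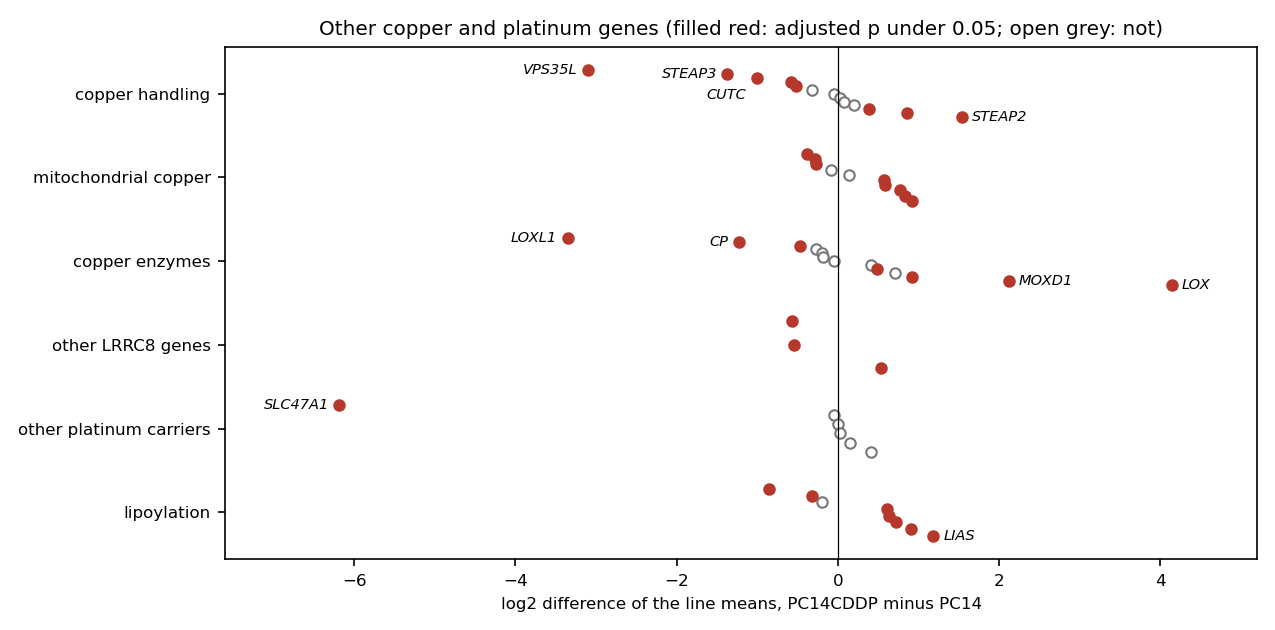
Log2 differences between PC14CDDP and PC14 (horizontal axis) for genes of the 6 other lists, 1 point per gene tested, where filled red points passed an adjusted p of 0.05 and names mark those at 1 log2 unit or more. Points of SLC47A1 and LOX are measured differences of genes that were not well above background in 1 of the lines, for which the text gives bounds, and LOXL1, MOXD1 and CP were so on part of the arrays of 1 line. SLC22A3, SLC47A2 and LOXL4, also plotted, were well above background on 0 of 4 arrays of each of these lines.

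The 75th percentile of an array ranged from 614 to 715 in signal units, the share of probes well above background from 55.8% to 63.1%, and 0 spots were saturated. Of 5 epithelial markers, all were well above background on all 4 A549 arrays, and 3 were in each of PC14 and PC14CDDP. In PC14, EPCAM was so on 3 of 4 arrays (mean -5.27) and CDH1 on 2 of 4 (mean -5.62). Both were so on 0 of 4 PC14CDDP arrays. Of 5 markers of lung adenocarcinoma, 2 were so in A549 and 3 in each of PC14 and PC14CDDP, with NKX2-1 on 0 of 4 A549 arrays. Of 4 fibroblast markers 2, of 3 endothelial markers 2 to 3, and of 4 blood cell markers 2 were well above background on all arrays of each line, and DCN was so on 0 of 12. The endothelial marker PECAM1 was well above background on 4 of 4 PC14 arrays (mean -1.37) and on 0 of 4 PC14CDDP arrays (measured mean -7.74). Their part in the differences above was not tested.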

How the data were processed

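RNA of 12 cultures was labeled with 1 dye and hybridized to 60-mer arrays. The authors used Agilent Feature Extraction 10.7.3.1 (per the submitters' processing notes) and, per spot, deposited the intensity, its background, flags and a background-subtracted, detrended processed signal, not scaled between arrays. Their deposited table of intensity values equals that signal (largest relative difference 0). It was used for 12 arrays, and 0 columns belonged to other samples.

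Control and outlier spots were left out, spots of a probe averaged, and 106 probes with a missing value dropped. The log2 processed signal minus the array's 75th percentile was used. Probes well above background on at least 3 of 12 arrays entered, and the brightest stood for its gene. Line and transfection were the terms of 1 linear model over the 12 arrays (limma 3.58.1, R 4.3.3), with eBayes, and p-values were adjusted over 24858 genes by Benjamini-Hochberg. It was run on simulated data in which only a small part of the genes differed between lines, unlike these arrays, where many did. Gene names came from the RefSeq table of GRCh38.p14 (55.7% of probes matched) or the files, and probe positions are hg19. Probe sequences came from the scanner output and other sequences from RefSeq.

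The 8 genes and the lists were chosen with earlier results of these data known. Named were all 8 genes, list genes called with a log2 difference of at least 1 (at most 12), and the 2 genes most correlated with each of the 8. Alternatives are given at the end.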

Additional observations from a re-analysis of the deposited data

Results flagged for a closer look

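In 24 groups of 4 arrays (8 genes in 3 lines), 3 held an array whose gap to the nearest other array, divided by the range of the group, exceeded Dixon's 95% critical value. That value is set so that chance exceeds it in about 1 in 20 groups. ATOX1 in PC14CDDP was 3.73 with pre-miR-197, below 3.97 to 4.0 on the other arrays. CCS in PC14 was 1.62 with LNA-miR-197, above 1.35 to 1.39. LRRC8A in PC14CDDP was 4.71 with LNA-NC, below 4.85 to 4.88. ATP7A after pre-miR-197 moved by at least 1.2-fold in opposite directions in different lines, with a log2 ratio to NC of -0.51 for A549, of -0.069 for PC14 and of 0.30 for PC14CDDP. Each ratio comes from 1 pair of arrays, and the difference between the lines was not tested.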

How the results depend on the processing

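Of 744 values of the 8 genes under the alternatives, 0 called values changed direction, 20 lost the call and 9 gained it. Several alternatives change only the filter, the prior, the model terms, the test or the arrays that share the estimate of spread. These settings leave the log2 differences as they were, and the deposited table equals the signal used. A direction could therefore change only under the other alternatives. The 6 genes called in PC14CDDP against PC14 became 3 to 5 with 1 transfection left out and 4 with only control arrays, where CCS (adjusted p = 0.253) and LRRC8A (0.0555) were lost. The share of all genes called in these settings was not counted. SLC31A2, ATP7B and LRRC8D stayed called under every alternative run in that comparison. ATP7A was lost by the methods' t-test (adjusted p = 0.0644), which called 5 of the 8 after adjustment and 7 before it. Of all 24858 genes, that t-test called 7991 after adjustment and 10573 at an unadjusted p under 0.05. With 1 transfection left out, mitochondrial copper counts were 5 to 8 and copper enzyme counts 4 to 7. Requiring probes above background on all 12 arrays left 2 copper enzymes and 0 other platinum carriers, since fewer genes were tested. The methods' t-test called 4 mitochondrial copper genes and 3 copper enzymes, and only control arrays gave 4 copper enzymes, the cause of which was not tested. For LNA-miR-197 against LNA-NC, 1 gene was called with normexp (SLC31A2, adjusted p = 0.0446), with all 12 arrays above background (0.0474) and with a trend and robust prior (0.043), and 1 (ATP7A) with every probe on its own. With normexp 3162 of all genes were called in this comparison, beside 1903 in the main setting. The share of all genes called with the filter on all 12 arrays or the other prior was not counted. For A549 against PC14, quantile normalization lost LRRC8A (adjusted p = 0.0889), and for PC14CDDP against A549 it lost ATOX1 (0.121). The 13 probes of the 8 genes passed as well above background on every array, though the ATP7A probe A_33_P3210880 lay near that limit in PC14CDDP. With normexp, the log2 difference of PC14CDDP from PC14 was -1.32 for ATP7B and -0.58 for ATP7A, beside -1.62 and -0.75. The 12 arrays of 3 lines limit the precision.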
